A study of Homo sapiens with 6 samples.

Results

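The genes described here encode the mitochondrial ribosomal proteins, the protein part of the ribosome that works inside mitochondria. They were taken as all protein-coding genes whose symbol is MRPL or MRPS followed by a number and, in some, a letter, after the Ensembl identifiers of the count table had been matched to GENCODE symbols. This gave 78 genes of the 67060 in the table, 49 with MRPL symbols (large subunit) and 29 with MRPS symbols (small subunit). Of these, 73 passed the filter on low counts, 46 for the large and 27 for the small subunit, and the other 5 had 0 counts in all 6 libraries.

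RNA was sequenced from SH-SY5Y, a human neuroblastoma cell line that the labels describe as neuronal progenitors, 24 h after infection with 0.5 µl of adenovirus. One group received Ad CMV GFP (GFP replicates 1, 3 and 4), and the other received Ad CMV 3xFlag-Esrrg, which carries the coding sequence of mouse Esrrg behind the CMV promoter (ERRg replicates 2, 3 and 4). Both groups therefore carry an adenovirus with a CMV-driven gene, and an uninfected group was not analysed here. Nothing in the labels says that libraries of a group came from separate cultures, so p-values measure the spread between these 3 and 3 samples, which may be technical.

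ERRγ is an orphan nuclear receptor that, with PGC-1α, drives nuclear genes for mitochondrial respiration. The mitochondrial ribosome translates the few messenger RNAs of mitochondrial DNA, all of which encode subunits of the respiratory chain or ATP synthase. Its proteins are all encoded in the nucleus, made in the cytosol and imported. The small subunit reads the messenger RNA, the large subunit joins the amino acids, and both are built on ribosomal RNAs encoded by mitochondrial DNA. Many of the proteins have a bacterial counterpart, others occur only in mitochondria, and not all symbols match the place of the protein. MRPS30 and MRPS18A sit in the large subunit in structures, and MRPS36 is a part of the 2-oxoglutarate dehydrogenase complex.

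Reads counted on ESRRG, which may include reads of the mouse transgene, checked the labels. The normalized counts (CPM, counts scaled by TMM to a common library size) were 83.6, 90.4 and 86.9 in the GFP libraries and 569.6, 772.2 and 777.7 in ERRg replicates 2, 3 and 4. The libraries held 24969759 to 29700980 counts on genes with GFP and 26513620 to 40859666 with ERRg. HTSeq assigned 51.3% to 52.2% of the GFP reads to no feature, against 46.6%, 31.6% and 29.5% in ERRg replicates 2, 3 and 4. This share separates the groups and orders the ERRg libraries, and its part in the results below was tested only by adding it to the model as a covariate. Of 8 adrenergic neuroblastoma markers, 6 were measured, with summed levels of 582 to 635 CPM in GFP and 420 to 559 CPM in ERRg. TH, the rate-limiting enzyme of catecholamine synthesis, and CHGA, a secretory granule protein, had 0 counts in all 6 libraries. What set TH and CHGA to 0 was not tested, as for the members without counts described below, and no level is given for them. Of the 6 measured markers, DBH and GATA2 were called lower (log2 fold changes of -2.64 and -1.08) and PHOX2A higher (0.81). All 8 mesenchymal markers were measured, with summed levels of 3534 to 3567 CPM in GFP and 4285 to 4409 CPM in ERRg, and of these YAP1 was called lower (-0.67), while FN1, which made up most of the sum, was 0.46 higher on the log2 scale, under the fold cutoff. Of the 8 blood and epithelial markers, 5 stayed at 3 counts or fewer, and all 8 together summed to 2.30 to 2.94 CPM in GFP and 2.17 to 2.99 CPM in ERRg. The part of cell state in the results was not tested.

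The sequences before the starts of 6 members are shown because these members include the largest changes of each subunit, a pair of related genes that did not move alike, and MRPL34 and MRPS21, which are 2 of the 4 members that hold a receptor core. They were read from RefSeq on GRCh38.p14, are written 5′ to 3′ on the strand of the gene, and were found for 69 of the 78 members. Capitals mark CCAAT in either orientation in MRPL41 and MRPS18A, CCGGAAGT (an ETS motif) in MRPS34, and AAGGTCA (the core of the ERR element) in MRPL34 and MRPS21, where MRPS34 and MRPS21 hold it in the reverse orientation. In MRPS18C they mark CCAAT and, to its right, the E-box CACGTG.
MRPL41: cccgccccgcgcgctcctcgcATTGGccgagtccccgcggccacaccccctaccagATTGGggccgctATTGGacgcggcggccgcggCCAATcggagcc
MRPS34: cggcctcttccggtgACTTCCGGccggacc
MRPL34: gagcttctgtacAAGGTCAtcttccgtgag
MRPS21: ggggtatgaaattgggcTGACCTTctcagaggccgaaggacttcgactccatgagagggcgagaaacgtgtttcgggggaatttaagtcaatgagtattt
MRPS18A: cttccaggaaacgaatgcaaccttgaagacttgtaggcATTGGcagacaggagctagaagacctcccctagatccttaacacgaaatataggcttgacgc
MRPS18C: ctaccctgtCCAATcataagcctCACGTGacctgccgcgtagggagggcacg

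The stretch of MRPL41 is chr9:137551779-137551878 on the plus strand and ends at the base before the start. That of MRPS34 is chr16:1773140-1773169 on the minus strand, inside an annotated exon of EME2 on the other strand and, in GENCODE, partly inside the first exon of MRPS34 itself. The stretch of MRPL34 is chr19:17292388-17292417 on the plus strand, inside an exon of ABHD8 on the other strand. MRPS21 is shown at chr1:150293611-150293710 on the plus strand and MRPS18A at chr6:43687942-43688041 on the minus strand. MRPS18C is shown at chr4:83455856-83455907 on the plus strand, upstream of its first annotated exon.

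Most mitochondrial ribosomal protein genes were higher with ERRg, in both subunits, and none was called lower. Calls required an adjusted p (Benjamini-Hochberg) below 0.05 in edgeR's quasi-likelihood test over all 24500 tested genes, together with a change of at least 1.5-fold. By this rule 56 of the 73 tested members rose, against 17.3% of all tested genes and 25.9% of the tested protein-coding genes. No member fell, against 16.8% of all tested genes. The median log2 fold change of the members was 0.91, with quartiles of 0.64 and 1.21, while the median of all tested genes was -0.10 and that of the tested protein-coding genes 0.12. With the adjusted p alone 64 members rose, against 24.3% of all tested genes, and in 66 members every ERRg library lay above every GFP library, against 27.8%. In bulk RNA, more RNA of a gene per cell and more cells that express it cannot be told apart. Without TMM scaling (library size only) 36 members were called higher, against 2200 of the 24500 tested genes. The median of the members was then 0.57, but the median of all genes moved with it to -0.42. A test against a 1.5-fold threshold called 35 members higher, against 2207 of the 24500 tested genes. The fit with the share of reads on no feature as a covariate called 17 higher, against 1773 of the 24500. Of these 17 members, 16 were among the 56. In that fit the members' median stood 0.33 above the median of all genes, against 1.01 without the covariate.

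**Figure D1:**
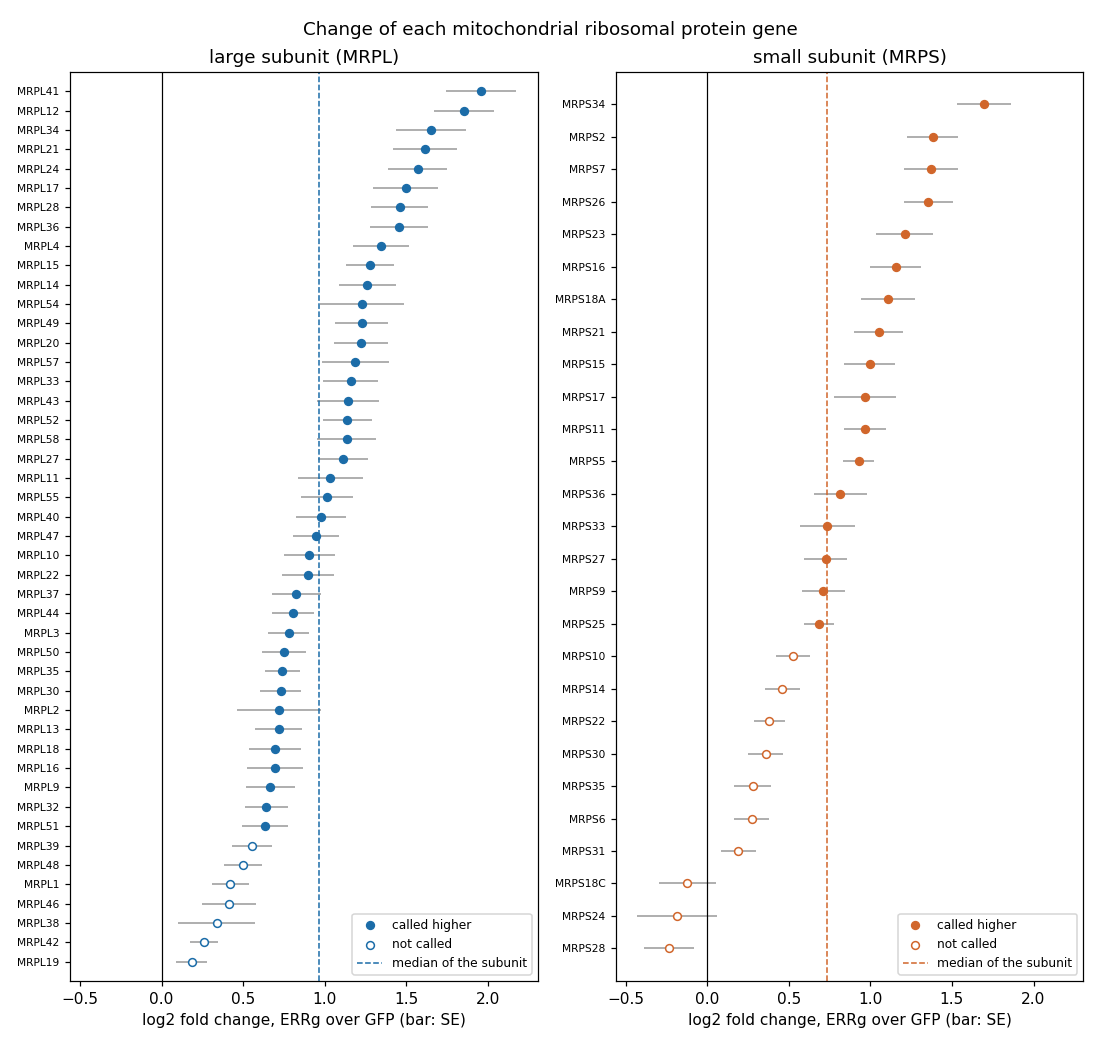
Log2 fold change of ERRg over GFP for the 46 large subunit and 27 small subunit members that passed the filter, ordered by change, with bars for the standard error. Filled points are the 39 and 17 members called higher, the dashed lines are the subunit medians of 0.96 and 0.74, and 3 members of the small subunit lie left of 0.

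Among the large subunit genes, 39 of 46 rose, 22 of them by 2-fold or more. MRPL41 (chr9:137551879-137552555, ENSG00000182154), a protein found only in mitochondrial ribosomes, had the highest change. Its level was 14.8, 17.8 and 17.5 CPM in the GFP libraries and 41.1, 71.5 and 82.0 CPM in ERRg replicates 2, 3 and 4. The groups did not overlap, ERRg replicate 2 was the lowest of its group, and the log2 fold change was 1.96 ± 0.22 (SE, n = 3 per group, adjusted p = 8.47e-05 by edgeR). MRPL12, the stalk protein on which translation factors dock, had 3.65, 4.53 and 3.56 CPM with GFP and 10.7, 14.7 and 17.02 CPM with ERRg. Its log2 fold change was 1.86 ± 0.18 (adjusted p = 5.38e-05 by edgeR). Exons of another gene on the same strand cover 69.5% of the exon length of MRPL12, so part of its reads may have been counted as ambiguous. The stalk partners MRPL10 and MRPL11 rose less, by log2 fold changes of 0.91 and 1.03.

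Next in order were MRPL34, MRPL21, MRPL24 and MRPL17, proteins with bacterial counterparts. MRPL34 had 19.1 to 23.8 CPM with GFP and 41.8, 75.8 and 83.2 CPM with ERRg (log2 fold change 1.65 ± 0.22 SE). MRPL24, a protein near the exit of the peptide tunnel, had 56.8, 71.4 and 68.7 CPM with GFP and 137.8, 219.4 and 227.4 CPM with ERRg. The changes of MRPL21, MRPL24 and MRPL17 were 1.62, 1.57 and 1.497, and all adjusted p-values of this group were at or below 0.00024 by edgeR. The other members that rose by 2-fold or more were MRPL28, MRPL36, MRPL4, MRPL15, MRPL14, MRPL54, MRPL49, MRPL20, MRPL57, MRPL33, MRPL43, MRPL52, MRPL58, MRPL27, MRPL11 and MRPL55. MRPL58 is the release-factor-like protein that frees stalled peptides. Between 1.5-fold and 2-fold lay MRPL40, MRPL47, MRPL10, MRPL22, MRPL37, MRPL44, MRPL3, MRPL50, MRPL35, MRPL30, MRPL2, MRPL13, MRPL18, MRPL16, MRPL9, MRPL32 and MRPL51, 17 genes with log2 fold changes of 0.63 to 0.98. Of the called large subunit genes, MRPL2 alone had overlapping groups (adjusted p = 0.038 by edgeR, 1.78 CPM on average with GFP). With the share of reads on no feature as a covariate, the signs of MRPL2 and MRPL16 turned, to -0.02 and -0.08.

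The 7 large subunit genes that were not called all had changes above 0. MRPL39, MRPL48 and MRPL1 passed the adjusted p but not the fold, with log2 fold changes of 0.55, 0.50 and 0.42. MRPL42 passed it as well at 0.26, but its sign turned to -0.06 with library size as the only scaling. MRPL46 had a change of 0.41 (adjusted p = 0.063 by edgeR). MRPL19, one of the most strongly counted members, had 94.2, 84.1 and 88.5 CPM with GFP and 95.8, 106.2 and 101.0 CPM with ERRg. Its groups were separate but close, with a log2 fold change of 0.18 ± 0.09 (SE, adjusted p = 0.12 by edgeR). Without ERRg replicate 2 the change became 0.33 (adjusted p = 0.00030 by edgeR), where the ERRg spread is that of replicates 3 and 4 alone. MRPL38, at 1.93 to 2.696 CPM with GFP and 2.13 to 3.52 CPM with ERRg, had overlapping groups, and 41.1% of its exon length is shared with another gene on the same strand.

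Among the small subunit genes, 17 of 27 rose, 8 of them by 2-fold or more. MRPS34 (chr16:1771890-1773150, ENSG00000074071), a mitochondria-specific protein, had 29.4, 34.4 and 31.8 CPM in the GFP libraries and 74.8, 113.8 and 121.6 CPM in ERRg replicates 2, 3 and 4. The groups did not overlap, and the log2 fold change was 1.70 ± 0.17 (SE, adjusted p = 4.79e-05 by edgeR). MRPS2, MRPS7 and MRPS26 followed at 1.38, 1.37 and 1.36. MRPS7, a protein of the head of the subunit, had 34.7 to 42.5 CPM with GFP and 73.8, 114.9 and 116.4 CPM with ERRg. MRPS23 and MRPS16 rose by 1.21 and 1.15, and MRPS21 by 1.05. MRPS15, MRPS17, MRPS11, MRPS5, MRPS36, MRPS33, MRPS27, MRPS9 and MRPS25 were called below 2-fold, at 0.69 to 0.99. MRPS36, the member that belongs to the dehydrogenase complex, had 5.96, 6.95 and 7.64 CPM with GFP and 9.46, 13.6 and 13.0 CPM with ERRg (log2 fold change 0.81 ± 0.16 SE, adjusted p = 0.0022 by edgeR).

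The other 10 small subunit genes were not called. MRPS10, MRPS14, MRPS22 and MRPS30 passed the adjusted p without reaching 1.5-fold, with log2 fold changes from 0.36 to 0.53. MRPS35, MRPS6 and MRPS31 had changes of 0.28, 0.27 and 0.19 that did not pass the test and whose signs turned with library size as the only scaling. MRPS35 had 49.2 to 49.7 CPM in the GFP libraries and 49.6, 65.7 and 64.2 CPM in ERRg replicates 2, 3 and 4, so that replicates 3 and 4 lay above all GFP libraries and replicate 2 among them. Without ERRg replicate 2 the changes of MRPS35, MRPS6 and MRPS31 were 0.50, 0.47 and 0.36, with adjusted p of 4.85e-07, 9.94e-07 and 0.00079 by edgeR. The ERRg spread in that fit is that of replicates 3 and 4 alone, which lay close together. Their difference scaled by counting noise (chi-square per gene) was 6.71, against 62.0 and 66.0 for the pairs with replicate 2. These p-values therefore measure a smaller spread than those of the main fit. With the GC and length correction the changes of MRPS35, MRPS6 and MRPS31 were 0.59, 0.41 and 0.49, and MRPS35 was called. Log2 fold changes below 0 were found in MRPS18C, MRPS24 and MRPS28, at -0.12, -0.19 and -0.23, with adjusted p from 0.23 to 0.59 by edgeR. MRPS24, which was chosen after its value was seen, averaged under 50 counts a library. MRPS28 was the one member with all ERRg libraries (3.48, 3.48 and 3.52 CPM) below all GFP libraries (3.87, 4.01 and 4.44 CPM), an order found in 30.3% of all tested genes. In 2 alternative fits MRPS28 passed the adjusted p in the lower direction without reaching the fold. It was at -0.56 with library size only (adjusted p = 0.025 by edgeR), where the median of all genes was -0.42. With protein-coding genes only it was at -0.37 (adjusted p = 0.036 by edgeR).

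The MRPS18 family and MRPS30 separate the symbol from the place in the ribosome. MRPS18A, in the large subunit by structure, had 6.17, 6.92 and 6.53 CPM with GFP and 10.6, 14.9 and 16.7 CPM with ERRg, a log2 fold change of 1.11 ± 0.17 (SE, adjusted p = 0.00041 by edgeR). MRPS18C, the counterpart of the bacterial S18 protein, had 6.85, 7.76 and 7.16 CPM with GFP and 7.03, 8.02 and 4.96 CPM with ERRg, so that its groups overlapped. Exons on the opposite strand cover 50.9% of MRPS18A and 40.2% of MRPS18C, and the strand setting of the counting is not given in the sources used here. MRPS18B had 0 counts. MRPS30 had 47.1 to 50.3 CPM with GFP and 54.3, 69.4 and 62.1 CPM with ERRg (0.36 ± 0.11 SE). With MRPS18A and MRPS30 moved to the large subunit and MRPS36 left out, 40 large and 15 small subunit genes were called, and the medians were 0.96 and 0.73.

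**Figure D2:**
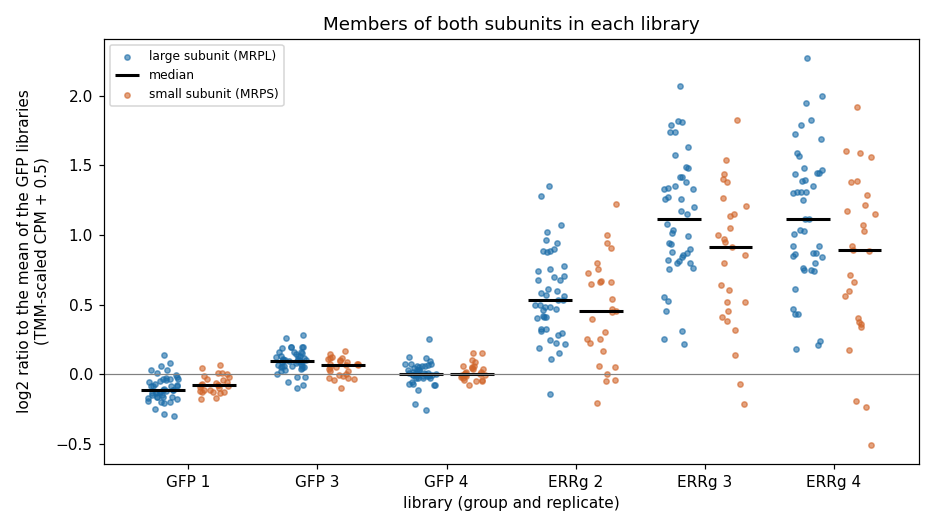
Log2 ratio of each tested member to the mean of the 3 GFP libraries, by library, for the 46 large subunit genes and the 27 small subunit genes, with black lines for medians. The ERRg medians of the large subunit are 0.53, 1.11 and 1.12 in replicates 2, 3 and 4, and those of the small subunit are 0.46, 0.92 and 0.89.

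The subunits differed less from each other than ERRg replicate 2 did from replicates 3 and 4, but more than replicates 3 and 4 did from each other. The median log2 fold change was 0.96 for the large and 0.74 for the small subunit, a difference of 0.23. In single libraries the large minus small difference of medians was 0.08, 0.20 and 0.22 for ERRg replicates 2, 3 and 4. The median ratio of all members to the GFP mean was 0.50, 1.00 and 1.03 in these libraries, and ERRg replicate 2 was the lowest ERRg library for 68 of the 73 members. It was also the one with the lowest ESRRG level and the highest share of reads on no feature among the ERRg libraries, and the part of either was not tested within the group. Members above the highest GFP library numbered 66, 71 and 70, and the same was not counted over all genes. Without ERRg replicate 2, 62 members were called higher, against 5820 of the 25369 genes tested in that fit. Without ERRg replicate 3 the difference of the subunit medians was 0.14.

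Levels were compared between genes as CPM per kilobase of exon. Summed over the large subunit, these were 553, 641 and 605 in the GFP libraries and 932, 1438 and 1466 in ERRg replicates 2, 3 and 4. For the small subunit the sums were 294, 327 and 315 with GFP and 475, 677 and 696 with ERRg. Large over small gave 1.92 ± 0.04 with GFP and 2.06 ± 0.09 with ERRg (SD, n = 3 each), with ERRg replicate 2 and GFP replicate 3 both at 1.96. These sums cover 46 large and 27 small genes, so their ratio depends on the number of genes. The ratio of the median levels was 1.40 with GFP and 1.91 with ERRg. A further comparison took the 34 tested members with no overlapping exon of another gene, 24 large and 10 small. Their ratio of sums was 1.70 ± 0.06 with GFP and 2.13 ± 0.13 with ERRg, and their ratio of median levels 0.87 and 0.98. Of these members 27 were called, against 29 of the 39 with an overlap. The highest levels per kilobase in GFP were those of MRPS21 (62.2), MRPL51 (53.2), MRPL24 (38.7), MRPS34 (29.2), MRPL41 (28.6) and MRPS16 (25.7). MRPL51, near the top in GFP, had a log2 fold change of 0.63, while MRPL41 and MRPL24 reached 111 and 115 CPM per kilobase with ERRg. The order of the members was largely kept, with a Spearman rho of 0.94 between the mean levels of the groups across the 73 genes, which share libraries and gene lengths. Across all tested protein-coding genes this rho was 0.96.

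**Figure D3:**
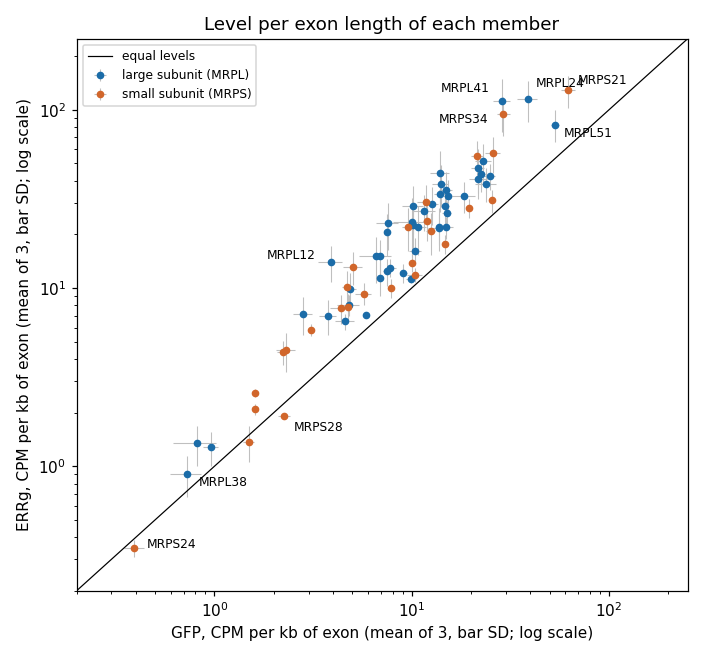
Mean level per kilobase of exon of each tested member with ERRg against GFP (CPM per kb, n = 3 libraries each, bars SD, both axes on a log scale). Most points lie above the line of equal levels, with MRPS21 at 62.2 and 129, MRPL41 at 28.6 and 111, and MRPS28 at 2.26 and 1.92 below it.

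The size of the change went with base composition. Across the 73 members, Spearman's rho between the log2 fold change and the GC content of the exons was 0.70, and across all 13746 tested protein-coding genes it was 0.42. Of the 36 members with a GC content above the member median of 47.1%, 34 were called, and of the other 37, 22 were. The median GC content was 49.2% in the large and 43.2% in the small subunit. In a fit that corrects for GC content and exon length, rho with GC content fell to 0.24. The correction takes out curves against GC content and length in each library, so a lower rho follows from its design. By subunit, rho went from 0.65 to 0.12 in the large and from 0.75 to 0.49 in the small subunit. The corrected fit called 63 members higher, against 3744 of the 24500 tested genes. Its subunit medians were 0.95 and 0.90, a difference of 0.05. MRPL41, MRPL12 and MRPS34 kept log2 fold changes of 1.79, 1.62 and 1.45 in that fit, while MRPL38, MRPS28 and MRPS18C changed sign and were called in neither. Longer genes also had smaller changes, with rho of -0.50 for the genomic span and -0.36 for the exon length. Across all tested protein-coding genes these values were -0.32 and -0.26. These are descriptions across genes of the same 6 libraries, and what lies behind them was not tested.

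**Figure D4:**
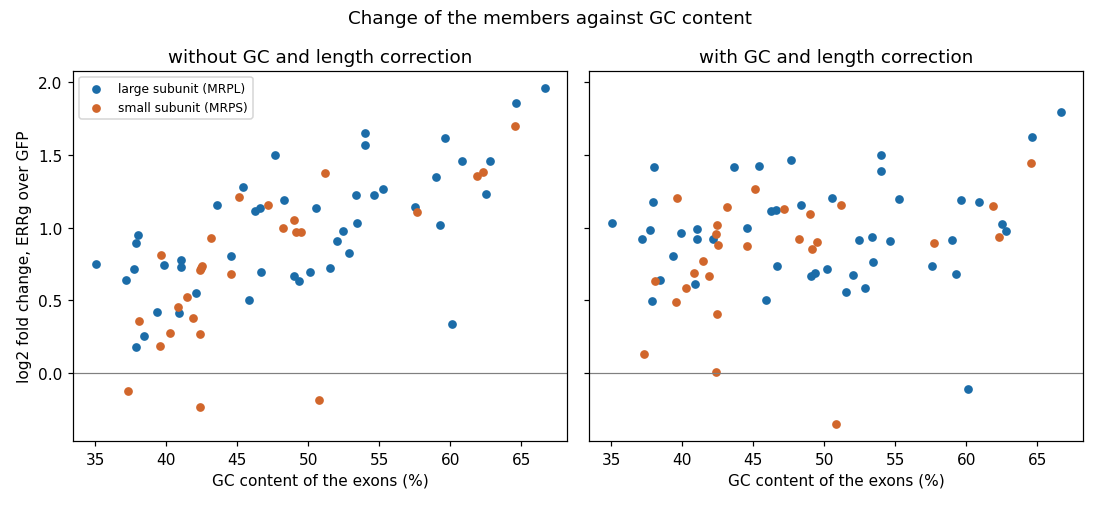
Log2 fold change of the tested members against the GC content of their exons (%), for the fit without correction and the fit with a correction for GC content and exon length. Spearman's rho is 0.70 on the left and 0.24 on the right, where 71 of 73 members still have changes above 0.

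The 5 members without counts were MRPL23 (chr11:1947278-1984522), MRPL45 (chr17:38297023-38323217), MRPL53 (chr2:74471982-74472687), MRPS12 (chr19:38930944-38933168) and MRPS18B (chr6:30617840-30626395). MRPS12 belongs to the decoding centre, MRPL23 lies at the exit of the peptide tunnel and MRPL45 holds the ribosome at the inner membrane. Each had 0 counts in all 6 libraries. A single library at 0 allows an expected count of up to 3 by counting error alone, and 6 libraries at 0 together allow less per library. The GRCh38 genome has alternate contigs, which repeat parts of the chromosomes, and reads that match both places are not unique. Words of 31 bases from the transcripts were found on such contigs for 88.0% of MRPS18B and 85.6% of MRPL45, but for 0% of MRPS12, MRPL23 and MRPL53. MRPS36, with 91.1% of its words there, still had 168 to 459 counts. For MRPL53, exons of other genes on the same and on the opposite strand cover 72.8% and 79.4% of the exon length. What set these genes to 0 was not tested, and no level is given for them.

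Mitochondrial ribosomal proteins with other symbols were also higher in 4 of 5 cases. AURKAIP1, GADD45GIP1, DAP3 and CHCHD1 rose by log2 fold changes of 1.55, 1.39, 0.97 and 0.97. DAP3, a GTP-binding protein of the small subunit, had 113.8, 117.1 and 117.9 CPM with GFP and 173.1, 252.6 and 256.4 CPM with ERRg. PTCD3, a pentatricopeptide repeat protein of the small subunit, had a change of 0.23 that passed the adjusted p of edgeR's test (0.048) but not the fold, and that turned to -0.09 with library size as the only scaling.

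Factors that assemble the mitochondrial ribosome were measured as a separate list. Of 26 tested, 10 were called higher (38.5%, against 25.9% of the tested protein-coding genes) and none lower, with a median log2 fold change of 0.45. METTL15 and GTPBP10, at -0.49 and -0.45, passed the adjusted p of edgeR's test in the lower direction (0.0046 and 0.0029) but not the fold. MPV17L2, DDX28 and TRUB2, all assembly factors of the large subunit or its RNA, changed most, by 1.56, 1.32 and 1.29. Of 15 factors of mitochondrial translation, 5 were called higher (33.3%) and none lower, with a median of 0.21, a share and a median not far from those of the protein-coding genes (25.9% and 0.12). MTIF2 and MTIF3, the initiation factors, passed the adjusted p of edgeR's test in the lower direction (0.041 and 0.035) without reaching the fold. TUFM, the elongation factor that brings transfer RNA to the ribosome, had 120, 147 and 135 CPM with GFP and 290, 432 and 450 CPM with ERRg, a log2 fold change of 1.54 ± 0.16 (SE, adjusted p = 7.16e-05 by edgeR). SLIRP, which stabilizes mitochondrial messenger RNAs with LRPPRC, and TACO1, which activates translation of MT-CO1, rose by 1.43 and 1.27.

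RNAs of mitochondrial DNA, which the ribosome contains or translates, gave a median of -0.12 with 3 of 15 called higher and none lower, near the median of -0.10 and the 17.3% of all tested genes. The RNAs of the ribosome itself were 2 of the 3. MT-RNR1, the small subunit RNA, had 26.5, 24.1 and 36.4 CPM with GFP and 49.0, 69.0 and 61.8 CPM with ERRg, and MT-RNR2, the large subunit RNA, had 43.2, 40.8 and 64.8 CPM with GFP and 93.1, 106.7 and 93.2 CPM with ERRg. The groups did not overlap, with log2 fold changes of 1.05 and 0.98. Ribosomal RNA had been depleted from these libraries, so both values are what the depletion left. MT-ND3, a subunit of complex I, was the other, at 0.74. Cytosolic ribosomal proteins, listed for comparison, rose in 70 of 81 tested genes with a median of 1.01, close to the members' median in size.

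**Figure D5:**
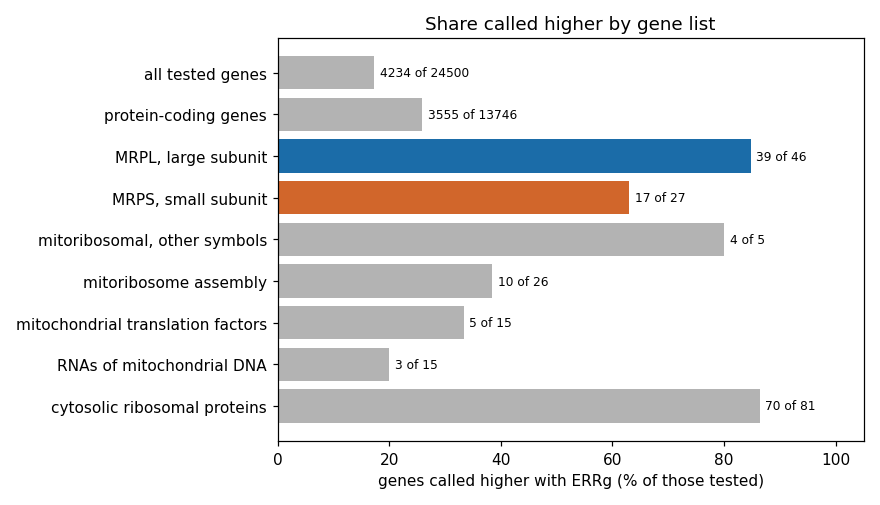
Share of tested genes called higher with ERRg (%, adjusted p below 0.05 and at least 1.5-fold) for both subunits, related lists and all genes, with the counts beside the bars. The large subunit has 39 of 46 and the small subunit 17 of 27, the cytosolic ribosomal proteins 70 of 81, and all tested genes 4234 of 24500.

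The promoters were searched on both strands from 250 bases before to 50 bases after each RefSeq start. None of the 69 members held the ERR element TNAAGGTCA or its stricter form TCAAGGTCA. Of all 27305 genes with a window 1.17% and 0.432% held them, and of the tested protein-coding genes 0.820% and 0.261%. At shares this low, 0 of 69 does not set the members apart. The core AAGGTCA, which is contained in both forms, was found in 4 members (5.80%), MRPL34, MRPS21, MRPS22 and MRPS33. It was in 4.801% of all genes and 3.93% of the tested protein-coding genes. In MRPL34, the core begins 173 bases before the start, and in MRPS21 it begins 233 bases before it. The ETS motif CCGGAAGT was found in 12 members (17.4%), 10 of the large and 2 of the small subunit, against 4.95% of all genes and 9.11% of the 11099 tested protein-coding genes with a window. In MRPS34 it begins 20 bases before the start. The 11 tested members with this motif had a median log2 fold change of 0.78 with 9 called, and the 54 without it had 0.97 with 40 called. The E-box CACGTG was in 9 members (13.0%, against 8.77% of all genes and 11.99% of the tested protein-coding genes) and the NRF1 motif GCGCATGCG in 3 (4.35%, against 2.34% and 3.95%), both near the shares of the tested protein-coding genes. CCAAT was in 23 members (33.3%), in 39.7% of all genes and in 43.0% of the tested protein-coding genes. MRPL41, the member with the highest change, holds 4 copies between 79 and 12 bases before its start. These matches describe letters in a short window and say nothing of binding.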

How the data were processed

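RNA sequencing of 6 libraries of SH-SY5Y cells (3 Ad CMV GFP, 3 Ad CMV 3xFlag-Esrrg, total RNA after removal of ribosomal RNA, directional libraries) was analysed from the raw counts that the authors deposited for 67060 genes. The submitters' processing notes name Trim Galore 0.6.7, STAR 2.7.9a, HTSeq 0.11.3, DESeq2, CASAVA and GRCh38. The annotation release and the strand setting are not given in the sources used here. Rows that name no gene held 52.3% to 64.0% of the reads and were left out. Identifiers were matched to GENCODE release 44 (60419 of 67060, 90.1%), from which exon lengths, GC content and overlaps were taken.

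Counts were filtered with filterByExpr, scaled by TMM and tested with edgeR 4.0.16 (quasi-likelihood, R 4.3.3) over 24500 genes, and each standard error was obtained by dividing the size of the log2 fold change by the root of F. Log ratios to the GFP mean use CPM plus 0.5. The members, lists and the rule for named genes were chosen with earlier results of these data known. That rule takes the 6 highest and 6 lowest members of each subunit with a mean of at least 50 counts, the 3 highest levels of each subunit, members called lower or at 3 counts or fewer, MRPS18A, MRPS18B, MRPS18C, MRPS30, MRPS36, ESRRG, the mitochondrial ribosomal proteins of other symbols, and the 3 largest called changes in each direction of 3 related lists. Other members are named as whole groups. The fits were tested on simulated data. Alternatives were DESeq2 1.42.0, other scalings and filters, other thresholds, protein-coding genes only, other subunit assignments, leaving out each library, the replicate number as a block, curves for GC content and length (mgcv 1.9.3) and the share of reads on no feature as a covariate. Tables and figures were made with matplotlib 3.10.9, scipy 1.17.1 and pandas 2.3.3 in Python 3.11.15.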

Additional observations from a re-analysis of the deposited data

Results flagged for a closer look

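Reads that HTSeq could not give to 1 gene (ambiguous reads) lie outside the counts used above. Their share of all reads was 5.69%, 9.84% and 9.79% in ERRg replicates 2, 3 and 4, against at most 4.87% in the GFP libraries. They stood out because each ERRg library lies above the highest GFP library. The share of reads with no unique alignment separated the groups as well. It was 7.16% to 7.41% in the GFP libraries and 9.33%, 12.7% and 13.0% in ERRg replicates 2, 3 and 4, and its part was not tested. Ambiguous reads arise where exons of several genes overlap, as they do for 39 of the 73 tested members, of which 29 were called higher, against 27 of the 34 without an overlap. The part of ambiguous reads in the members' changes was not tested beyond this split.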

How the results depend on the processing

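No member was called lower under any alternative, and 15 members were called higher in all 17 alternatives that keep a fold cutoff, among them MRPL41, MRPL12, MRPL34, MRPL24, MRPS34 and MRPS7. The share of all genes called in all 17 was not counted, so this number has no background beside it. DESeq2 and RLE size factors both gave 58 members called higher, protein-coding genes alone 46, and no fold cutoff 64. With library size as the only scaling, 36 members were called, 24 of them large, against 2200 of the 24500 tested genes. The subunit medians were 0.62 and 0.39. The median of all genes then moved from -0.10 to -0.42, so that the members stood 0.99 above it, against 1.01 with TMM. The same excess was 0.78 with protein-coding genes only and 0.33 with the covariate. The test against a 1.5-fold threshold called 35 members, 24 large and 11 small, against 2207 of the 24500 tested genes. The share of reads on no feature as a covariate left 17 members, 11 large and 6 small, against 1773 of the 24500 tested genes. The subunit medians were then 0.37 and 0.31, with a difference of 0.057. The correction for GC content and length gave a difference of subunit medians of 0.053. With each library left out in turn, 53 to 62 members were called higher, 36 to 43 large and 17 to 19 small, against 3710 to 5820 of all tested genes. The subunit medians were 0.86 to 1.23 for the large and 0.71 to 1.04 for the small subunit. The difference of the medians then ranged from 0.14 to 0.23, with the lowest value without ERRg replicate 3. The highest small subunit median of 1.04 came without ERRg replicate 2.

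Deviations of same-numbered libraries correlated at 0.075 (number 3) and -0.00010 (number 4), and those of differently numbered libraries at -0.13 to 0.14. With so few same-numbered libraries, these values cannot show whether the replicate numbers pair the samples. With the replicate number as a block, 58 members were called higher, 40 large and 18 small, against 4742 of the 24500 tested genes. GFP replicate 1 and ERRg replicate 2 have no same-numbered partner. The group difference in fits with the block therefore rests on replicates 3 and 4. The replicate block with the GC and length correction gave a small subunit median of 1.01 and a difference of 0.054.

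Among called members, the sign turned in MRPL16 (-0.082) and MRPL2 (-0.024) alone, both with the share of reads on no feature as a covariate. The other changes of sign concern named genes that were not called. With library size only, MRPL19 was at -0.14, MRPL42 at -0.062, MRPL38 at -0.0069, MRPS31 at -0.14, MRPS6 at -0.060, MRPS35 at -0.057 and PTCD3 at -0.090. With the GC and length correction, MRPL38 was at -0.11, MRPS28 at 0.010 and MRPS18C at 0.13, and with the block added MRPS28 was at 0.031 and MRPS18C at 0.10. With the covariate, MRPL38 was at -0.39, MRPS18C at 0.053, MRPS6 at -0.039 and MRPS35 at -0.11. With single libraries left out, MRPS18C ranged from -0.27 without ERRg replicate 3 to 0.064 without ERRg replicate 4. The causes were not tested. The share of reads on no feature does not overlap between the groups, so the covariate and the group cannot be fully told apart with 3 libraries each.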
